A study of Mus musculus with 9 samples.

Results

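The mouse Cyp2a and Cyp2b genes encode cytochrome P450 enzymes of subfamilies 2A and 2B. The rows of the liver RNA-seq table that carry one of 8 gene names were taken, namely Cyp2a4, Cyp2a5, Cyp2a12, Cyp2a22, Cyp2a21-ps, Cyp2b9, Cyp2b10 and Cyp2b13. All 8 were found among 19944 genes, and 7 had a mean of at least 10 normalized counts over the libraries and were tested. Cyp2b13 fell below that minimum. Livers came from male mice of the FVB strain at 60 days of age, kept on normal chow, in 3 genotypes with 3 libraries each. These were mice with intact Snd1 (WT), mice lacking it (KO) and knock-in mice whose SND1 has a mutated Tudor domain (KI). SND1 carries repeats related to nucleases, and its Tudor domain recognises methylated arginine in other proteins. The design asks what that domain contributes to transcription. How the alleles were made, and whether the deletion acts in every cell, are not given in the sources used here. The labels do not say that libraries came from separate litters or days, so p-values measure only the spread between these samples.

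Cytochromes P450 are heme enzymes of the endoplasmic reticulum that insert oxygen into drugs, steroids and other small molecules. They take electrons from the reductase POR and, for some substrates, from cytochrome b5. Cyp2a5 is the coumarin hydroxylase of mouse liver and also oxidises nicotine, and the closely related Cyp2a4 is a steroid hydroxylase that is more abundant in female than in male liver. Cyp2b10 is the best known target of the nuclear receptor CAR, encoded by Nr1i3, whereas Cyp2b9 and Cyp2b13 are known as female-predominant genes. The clock-controlled factor DBP and the liver factor HNF4A are known activators of Cyp2a4 and Cyp2a5.

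The libraries held 59678412 to 66384374 reads counted on genes. Snd1 itself checked the KO label, at 6512 to 8446 normalized counts in WT, 227 to 414 in KO and 5373 to 7941 in KI. Its WT and KI values overlapped, so it did not check which of these libraries were WT and which KI. Of 12 hepatocyte markers, 11 were found, and each had reads in every library, together 5.07% to 9.60% of reads. Exocrine pancreas genes took 1.33% of the reads of WT_3, 0.546% of KI_1 and 6.33% of KI_3, against 0.00176% to 0.00526% in the other 6 libraries, so results are also given without these 3 libraries where that ends a call. Genes of the acute phase response, the secreted liver proteins of inflammation, took 2.91% to 3.22% of reads in WT and 2.27% to 3.38% in KI. In KO they took 9.38% in KO_1, 22.6% in KO_2 and 23.2% in KO_3, so the KO libraries differed among themselves and all lay above the other groups.

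The 8 genes lie together on chromosome 7 of GRCm38. In GENCODE M21 the cluster runs from Cyp2b10 at chr7:25897620-25926624 through Cyp2b13, Cyp2b9 and Cyp2a4 at chr7:26307169-26315088 to Cyp2a5 at chr7:26835305-26843548, Cyp2a22 and, last, Cyp2a12 at chr7:27029081-27037375. Cyp2a21-ps is annotated as an unprocessed pseudogene on the plus strand at chr7:26917381-26952346. It spans Cyp2a22, which lies on the minus strand at chr7:26931631-26939384, and their exons share 0 bases.

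The 4 upstream sequences below are shown because the first pair belongs to genes that were far lower in KO, while the third belongs to the abundant gene of the same subfamily that was not called and the last to the CAR target. Each covers 140 bases, from 150 to 11 bases before the gene start in RefSeq on GRCm38.p6, all on the plus strand, 5′ to 3′. GENCODE M21 places the starts of these 4 genes slightly further upstream than RefSeq does. Capitals mark the TATA box TATAAA and the motifs TTGCATAA and CAAAGTCC. These last 2 motifs were added after the sequences had been seen, as variants of the DBP element and the HNF4 element that had been searched first.
Cyp2a4, chr7:26307042-26307181: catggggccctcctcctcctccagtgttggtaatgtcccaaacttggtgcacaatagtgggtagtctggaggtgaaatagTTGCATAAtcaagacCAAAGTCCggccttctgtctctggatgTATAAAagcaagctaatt
Cyp2a5, chr7:26835189-26835328: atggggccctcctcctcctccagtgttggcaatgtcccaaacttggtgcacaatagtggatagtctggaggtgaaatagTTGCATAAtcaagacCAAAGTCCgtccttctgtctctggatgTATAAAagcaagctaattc
Cyp2a12, chr7:27028940-27029079: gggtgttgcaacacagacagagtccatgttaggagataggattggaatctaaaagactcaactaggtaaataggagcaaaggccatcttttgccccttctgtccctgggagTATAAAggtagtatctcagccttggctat
Cyp2b10, chr7:25897508-25897647: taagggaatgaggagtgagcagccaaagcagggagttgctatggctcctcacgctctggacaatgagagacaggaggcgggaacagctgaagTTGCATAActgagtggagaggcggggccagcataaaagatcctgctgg

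The upstream windows of 250 bases were 98.4% identical between Cyp2a4 and Cyp2a5, with 4 mismatches in 249 aligned bases. Those of Cyp2a12 and Cyp2a22 were 91.6% identical and those of Cyp2b9 and Cyp2b13 99.2%, whereas Cyp2a5 and Cyp2a12 shared 69.7% of the aligned bases. Windows were found for 7 of the 8 genes, all but Cyp2a21-ps. TTGCATAA and CAAAGTCC were added after the sequences had been seen, and the windows of Cyp2a4 and Cyp2a5 are near copies. Their counts beside the share of all windows are therefore no test. On both strands, TTGCATAA was present in 3 of these 7 windows (Cyp2a4, Cyp2a5 and Cyp2b10) and in 0.694% of 32851 promoter windows of the same length. CAAAGTCC was present upstream of Cyp2a4 and Cyp2a5 and in 1.2% of all windows. The HNF1 motif GTTAAT was also present upstream of these 2 genes, and in 6.43% of all windows. The nuclear receptor motif AGGTCA was present upstream of Cyp2b9 and Cyp2b13, against 14.0% of all windows. TATAAA was present upstream of Cyp2a4, Cyp2a5, Cyp2a12 and Cyp2a22, against 12.4%. The forms TTATGTAA, TTANNTAA (which TTATGTAA also matches), CAAAGTCCA (a longer form of CAAAGTCC), TTCNNNGAA and TGACNNNGC were in none of the 7 windows. These are matches of letters in a window of fixed place, and binding was not measured.

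The transcripts of Cyp2a4 and Cyp2a5 are also nearly alike. They differ at 30 of 1738 aligned bases in the longest transcripts, an identity of 98.3%. Of all stretches of 100 bases in Cyp2a4, 11.2% occur letter for letter in Cyp2a5, and of those in Cyp2a5, 9.56% occur in Cyp2a4 and 7.21% in Cyp2a21-ps. Cyp2b10 shares no such stretch with another of the 8 genes. Reads from the shared stretches cannot be assigned by sequence, so the split between Cyp2a4, Cyp2a5 and Cyp2a21-ps is uncertain. The same holds for Cyp2a22, which shares 4.09% of its stretches with the far more abundant Cyp2a12, and for Cyp2b9 and Cyp2b13, which share 1.18%. Measured Cyp2a4 equalled 1.44% to 2.06% of Cyp2a5 in the 6 WT and KI libraries and 1.65%, 2.53% and 0.585% in KO_1, KO_2 and KO_3. Cyp2a21-ps equalled 0.912% to 1.19% of Cyp2a5 in WT and KI, and 1.05%, 0.253% and 0.585% in the KO libraries. How many of these reads came from Cyp2a5 was not tested.

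In WT liver 2 genes of the family stood far above the rest. Per kilobase of annotated exon, Cyp2a5 had 13366 ± 3467 normalized counts (SD, n = 3) and Cyp2a12 had 12399 ± 879, and their ranges over the libraries overlapped. Cyp2b10 followed at 949 ± 1155 per kilobase, Cyp2a4 at 280 ± 76.2 and Cyp2a21-ps at 207 ± 72.0. Each of these 3 overlapped its neighbour in the order. Cyp2a22 at 103 ± 14.7 lay below every value of Cyp2a21-ps and overlapped Cyp2b9 at 94.8 ± 69.6. Cyp2b13, the female-predominant relative of Cyp2b9, had 0 reads in all WT libraries, and a count of 0 allows up to 3 reads per library.

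The order of the genes was different in KO. Cyp2a12 led at 9355 ± 2504 per kilobase (SD, n = 3), above every value of Cyp2a5 at 1079 ± 1410, whose lowest library reached the range of Cyp2b10. Cyp2b10 at 108 ± 101, Cyp2b9 at 73.1 ± 47.9 and Cyp2a22 at 67.3 ± 12.1 overlapped one another. Cyp2a4 at 21.9 ± 27.5 and Cyp2a21-ps at 14.2 ± 22.3 came next and overlapped each other. Both also overlapped Cyp2b10 and Cyp2b9, and both overlapped Cyp2b13 at 1.26 ± 1.12. In KI the 2 leading genes were again Cyp2a5 at 11913 ± 545 and Cyp2a12 at 10823 ± 1128, which overlapped. Cyp2a4 at 228 ± 28.9, Cyp2a21-ps at 173 ± 27.4 and Cyp2b10 at 147 ± 97.4 overlapped their neighbours, and Cyp2b9 at 35.7 ± 48.7 again overlapped Cyp2a22 at 76.5 ± 22.

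**Figure D1:**
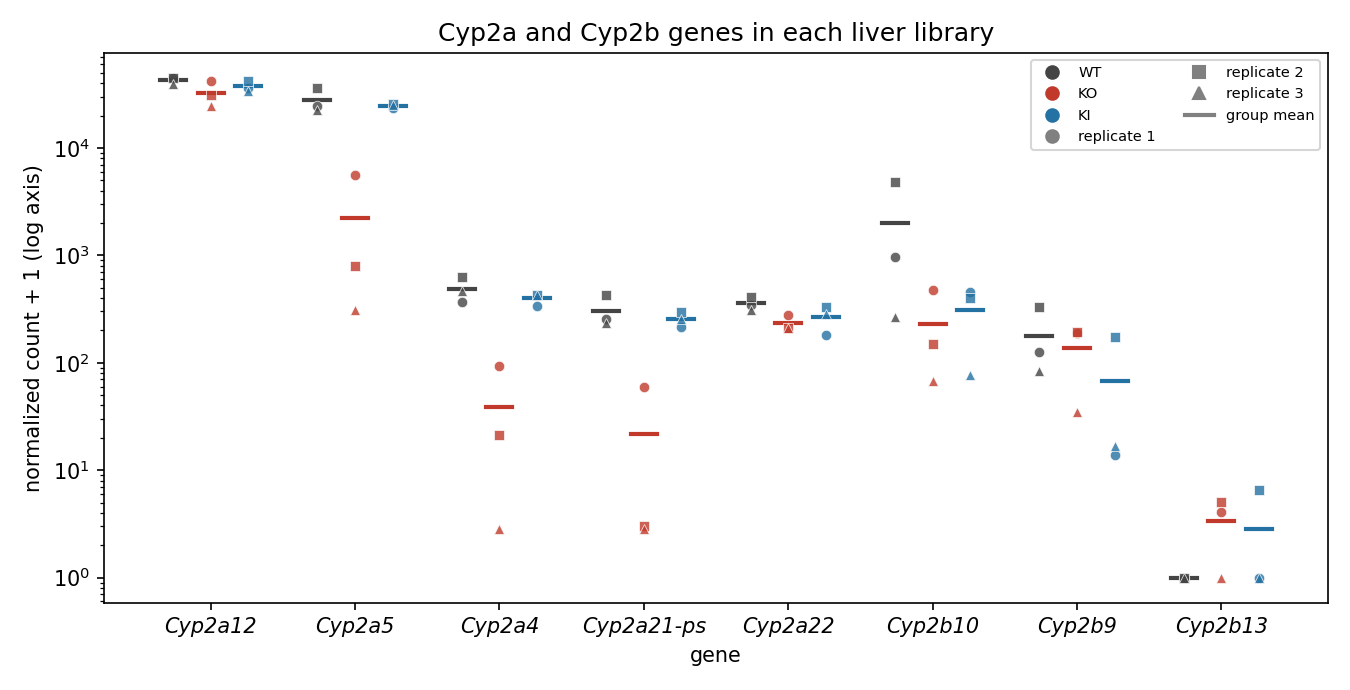
Normalized count plus 1 on a log axis for each of the 8 genes, 1 point per library, coloured by genotype, with the marker shape giving the replicate and a bar the group mean (n = 3). Cyp2a5, Cyp2a4 and Cyp2a21-ps lie lower in all 3 KO libraries than in any WT or KI library, whereas Cyp2a12 stays within 24304 to 44734 in all 9.

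The comparison of KO with WT asks what loss of SND1 does to these genes. Cyp2a5, Cyp2a4 and Cyp2a21-ps fell in KO, and Cyp2a12, Cyp2a22, Cyp2b9 and Cyp2b10 did not pass the test. Of the 7 genes tested, 3 were called lower and 0 higher, where 4.2% of all genes tested were called lower and 4.63% higher. The 3 called genes share stretches of sequence, so their calls are not separate results. The family was also chosen with earlier results of these data known, so this count beside the shares is no test. The median log2 fold change was -2.67 over the 7 genes and 0.00 over all genes tested. In bulk liver, fewer cells of a type and less RNA per cell cannot be told apart.

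Cyp2a5, the coumarin hydroxylase, had 24523, 35938 and 22663 normalized counts in WT_1, WT_2 and WT_3 and 5601, 801 and 309 in KO_1, KO_2 and KO_3. Every KO library lay below every WT library, and the KO libraries spanned 18.1-fold, with KO_1 the highest. The log2 fold change was -4.60 ± 0.79 (SE), with a 95% interval of -6.35 to -2.85 and a limma adjusted p of 0.00745. This is a fall of 24.3-fold between means of log values, while the arithmetic means, 27708 ± 7188 (SD) and 2237 ± 2924, differ by 12.4-fold.

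Cyp2a4, the related steroid hydroxylase, had 365, 628 and 467 normalized counts in WT and 92.3, 20.3 and 1.81 in KO, in replicate order. The KO libraries were again all lower, with the same order from KO_1 down to KO_3. Its log2 fold change was -4.75 ± 0.95 (limma adjusted p = 0.0143). The pseudogene Cyp2a21-ps had 254, 427 and 234 in WT and 58.8, 2.03 and 1.81 in KO, and its log2 fold change was -5.21 ± 0.95 (limma adjusted p = 0.0102). Its groups did not overlap either. With reads of the near-identical pair Cyp2a4 and Cyp2a5 summed, the fall was -4.60 ± 0.79 (limma adjusted p = 0.00746). Cyp2a4 equalled at most 2.53% of Cyp2a5 in any library, so the sum nearly repeats Cyp2a5. It cannot show whether Cyp2a4 itself fell, and Cyp2a21-ps was not part of it.

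These 3 calls depended on which libraries were kept. Without WT_3, KI_1 and KI_3, none of the 3 genes was called (limma adjusted p = 0.152 to 0.194), although their log2 fold changes were -4.73 for Cyp2a5, -4.76 for Cyp2a4 and -5.37 for Cyp2a21-ps, and 0.197% of all genes were called in that smaller fit. The call of Cyp2a4 was lost without WT_2 (adjusted p = 0.0552) or without KO_2 (adjusted p = 0.0514). Leaving out KO_1 moved Cyp2a5 to -5.77, Cyp2a4 to -5.94 and Cyp2a21-ps to -6.66, and leaving out KO_3 moved them to -3.68, -3.42 and -4.45, with all 3 called in both cases. Leaving out KO_2 moved Cyp2a21-ps to -4.51. edgeR on recovered reads, a model of counts, gave -3.63 for Cyp2a5, -3.68 for Cyp2a4 and -3.88 for Cyp2a21-ps, and also called all 3. DESeq2 gave no adjusted p for Cyp2a5 and called the other two.

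Cyp2a12, a steroid hydroxylase, had 44734, 44500 and 39359 normalized counts in WT and 41508, 31209 and 24304 in KO. KO_1 lay inside the WT range while KO_2 and KO_3 lay below it. The log2 fold change was -0.44 ± 0.20, with an interval of -0.88 to 0.00 and a limma adjusted p of 0.203. Without KO_1 it was called, at -0.64 (adjusted p = 0.0205). Cyp2a22 had 347, 410 and 310 in WT and 280, 208 and 208 in KO, so that each KO library lay below each WT library, but the change of -0.62 ± 0.24 was not called (limma adjusted p = 0.14). How many of its reads came from Cyp2a12, with which it shares sequence, was not tested. In all, 4 of the 7 genes had KO libraries wholly below WT, against 14.2% of all genes tested. Besides Cyp2a22 these were Cyp2a4, Cyp2a5 and Cyp2a21-ps, which share sequence and are not separate results.

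In WT the Cyp2b genes varied more between libraries than the Cyp2a genes, with coefficients of variation of 122% for Cyp2b10 and 73.5% for Cyp2b9 against 7.09% to 34.7%. Cyp2b10, the CAR target, had 957, 4794 and 263 normalized counts in WT and 470, 149 and 66.1 in KO. WT_2 was 18.2 times WT_3, and KO_1 lay above WT_3, so the groups overlapped. The log2 fold change of -2.67 ± 1.06 had an interval of -5.03 to -0.31 and a limma adjusted p of 0.149. It was called by DESeq2 at -3.14 (adjusted p = 0.0474) and with the pancreas genes as a covariate at -3.49 (adjusted p = 0.0499), and over all settings its adjusted p ran from 0.0301 to 0.393. Without WT_2, the highest library, the value was -1.58.

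Cyp2b9 had 125, 327 and 82.1 normalized counts in WT and 187, 191 and 33.5 in KO. The groups overlapped, with a log2 fold change of -0.49 ± 0.99 (limma adjusted p = 0.814). Its sign turned without WT_2, at 0.07, and without KO_3, at 0.33. Cyp2b13 had 0, 0 and 0 reads in WT, 3, 4 and 0 in KO and 0, 6 and 0 in KI, so no library rose clearly above the 3 reads that a count of 0 allows and no fold is given.

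The comparison of KI with WT asks what the mutated Tudor domain does to these genes in livers that still hold the Snd1 transcript. None of the 7 genes was called, and none reached an unadjusted p under 0.05 in limma, where 0.0263% of all genes tested were called and 11.6% reached that unadjusted p. edgeR called 0 of 7 and DESeq2 0 of the 6 to which it gave an adjusted p. The median log2 fold change was -0.27, against 0.00 over all genes tested. No gene of the 7 had KI libraries wholly above or below WT, against 19.6% of all genes tested.

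Cyp2a5 had 23422, 25577 and 25092 normalized counts in KI_1, KI_2 and KI_3, all inside the WT range. The log2 fold change was -0.14 with an interval of -1.89 to 1.61, so a change of 3-fold either way lies within the interval. The fit shares 1 estimate of spread over the 3 groups. For Cyp2a5 the KO libraries spanned 18.1-fold, against 1.59-fold in WT and 1.09-fold in KI. Intervals in this comparison therefore also carry the spread of the KO libraries. Cyp2a4, at 338, 426 and 424, changed by -0.27 with an interval of -2.37 to 1.84, and Cyp2a21-ps, at 214, 294 and 256, by -0.22. For Cyp2a12 the KI values were 36353, 41738 and 34158, with 2 of them below the lowest WT library. Its log2 fold change of -0.20 had the narrowest interval of the 7 genes, -0.64 to 0.24. Cyp2a22 had 179, 326 and 286, where only KI_2 lay inside the WT range, and a log2 fold change of -0.47 with an interval of -1.0 to 0.07.

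The Cyp2b genes had the lowest point estimates in KI. Cyp2b9 had 12.9, 173 and 15.7 normalized counts, with KI_1 and KI_3, at 12 and 14 reads, below every WT library and KI_2 within their range. The log2 fold change was -2.14 with an interval of -4.34 to 0.07 (limma adjusted p = 0.446). Cyp2b10 had 456, 400 and 75.1, of which KI_1 and KI_2 lay within the WT range, and a log2 fold change of -2.15 with an interval of -4.51 to 0.21 (limma adjusted p = 0.478). The libraries KI_1 and KI_3, low for Cyp2b9, also held pancreas transcripts. So did WT_3, the lowest WT library for both Cyp2b9 and Cyp2b10. Both genes kept their sign in KI against WT in all 21 other settings, those without these libraries or with the pancreas genes as a covariate included. The part of the pancreas transcripts in the result was not tested.

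The direct comparison of the 2 mutants uses no WT library for its means. Cyp2a5 was 4.47 ± 0.79 higher on the log2 scale in KI than in KO (limma adjusted p = 0.00932), Cyp2a4 was 4.48 ± 0.95 higher (adjusted p = 0.0194) and Cyp2a21-ps was 4.99 ± 0.95 higher (adjusted p = 0.0127). These 3 of 7 genes were called, all higher, where 3.6% of all genes tested were called higher. They share sequence, so their calls are not separate results. Their KI libraries all lay above their KO libraries, which held for 12.3% of all genes tested. Cyp2a12 at 0.24, Cyp2a22 at 0.15, Cyp2b10 at 0.52 and Cyp2b9 at -1.65 were not called.

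These calls were lost without the 3 libraries with pancreas transcripts, which leaves 1 KI library (4.52 for Cyp2a5, adjusted p = 0.4), and with the pancreas genes as a covariate (4.61, adjusted p = 0.0519). The KI values of Cyp2a5 in KI_1 and KI_3, which held those transcripts, and in KI_2, which did not, differed by at most 1.09-fold. Without KO_2 the call held for Cyp2a5 alone (adjusted p = 0.0476). Without KI_1, without KI_3 or in a fit of the 2 groups alone, Cyp2a4 was not called. Leaving out KO_1 moved Cyp2a5 to 5.63, Cyp2a4 to 5.68 and Cyp2a21-ps to 6.44, and leaving out KO_3 moved them to 3.54, 3.15 and 4.23. Without KO_2, Cyp2a21-ps stood at 4.29.

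**Figure D2:**
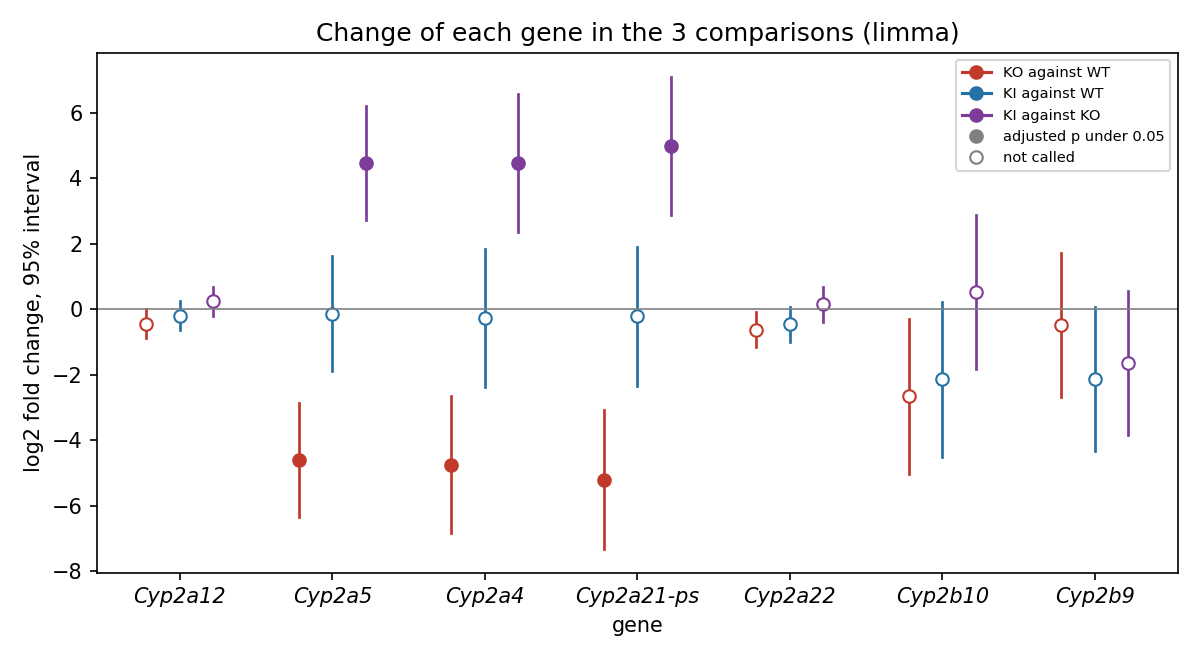
Log2 fold change (points) with 95% intervals (lines) of the 7 tested genes in the 3 comparisons, from limma. Filled points have an adjusted p under 0.05. Cyp2a5, Cyp2a4 and Cyp2a21-ps are called in both comparisons that hold KO, and no gene is called in KI against WT, where the Cyp2b intervals reach from -4.51 to 0.21.

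The make-up of the family shifted with these changes. Cyp2a12 gave 51.1% to 62.7% of the family's summed normalized counts in WT, 56.6% to 60.5% in KI, and 86.1%, 95.8% and 97.5% in KO_1, KO_2 and KO_3. Cyp2a5 gave 34.4% to 41.3% in WT and 37.1% to 41.6% in KI, but 11.6%, 2.46% and 1.24% in the KO libraries. As a share of all reads the 8 genes took 0.104% to 0.144% in WT, 0.0454% to 0.0752% in KO and 0.0853% to 0.114% in KI. The ratio of Cyp2a12 to the sum of Cyp2a4 and Cyp2a5 was 1.80, 1.22 and 1.70 in WT, 1.53, 1.61 and 1.34 in KI and 7.29, 38.0 and 77.8 in KO. The KO ratios were all higher, by 4.17 in mean log2 ratio against WT, and the exact two-sided permutation p was 0.1, the smallest that 3 against 3 allow. The ratio of Cyp2b10 to the same sum was 1.94 higher in KO than in WT on the log2 scale (exact permutation p = 0.2), and KI differed from WT by -2.01 (exact permutation p = 0.3). The 6 ratio tests, 2 ratios in 3 pairs of groups, were not adjusted, since none can go below 0.1.

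Other P450 genes stand between and beside the family. Of 9 listed, Cyp2g1, Cyp2f2 and Cyp2s1 were found. Cyp2g1, a P450 known from olfactory tissue, lies between Cyp2a4 and Cyp2a5 at chr7:26808892-26821205. It had 395, 432 and 370 normalized counts in WT, 34.5, 15.2 and 29.0 in KO and 118, 161 and 173 in KI. The 3 groups did not overlap, with KI between WT and KO. Its log2 fold change was -3.95 ± 0.31 in KO against WT (limma adjusted p = 1.66e-04) and 2.53 ± 0.31 in KI against KO (limma adjusted p = 0.00163). In KI against WT it was -1.42 ± 0.31 and was not called by limma (adjusted p = 0.13) or edgeR (adjusted p = 0.113), but was by DESeq2 (-1.41, adjusted p = 2.30e-05) and in a limma fit of these 2 groups alone (adjusted p = 0.0462). With WT_3, KI_1 and KI_3 left out, the call in KO against WT held (-4.00, adjusted p = 0.0493) and that in KI against KO was lost (2.65, adjusted p = 0.26).

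Cyp2f2, known for the oxidation of naphthalene, lies past Cyp2a12 and was not called in KO against WT (log2 fold change -1.16 ± 0.48, limma adjusted p = 0.161). Its KO values were 102170, 28823 and 20511 normalized counts against 81974 to 98333 in WT, so KO_1 lay above all WT libraries and the other KO libraries below. Without KO_1 it was called, at -1.85 (adjusted p = 2.56e-04). Cyp2s1, at the other end, was not called (0.44). Of 18 listed flanking genes that are no P450 genes, 15 were found and tested, and limma called 0 of them in KO against WT, with log2 fold changes from -0.63 to 0.40. At an unadjusted p under 0.05 there were 2, against 25% of all genes tested. edgeR called 0 and DESeq2 2, where they called 7.94% and 15.4% of all genes. Without KO_1, without KI_2 or in a fit of the 2 groups alone, 1 was called.

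**Figure D3:**
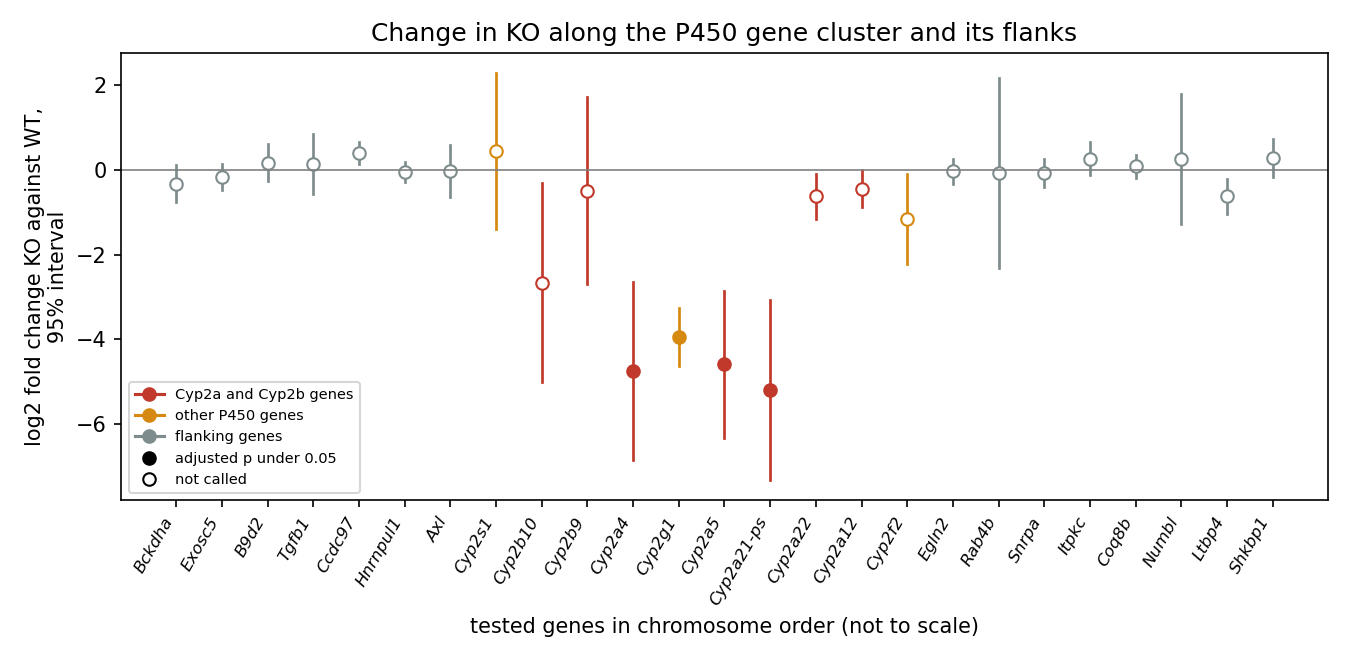
Log2 fold change of KO against WT with 95% intervals from limma for the tested genes of the cluster and its flanks, in chromosome order and not to scale. Filled points have an adjusted p under 0.05. The called genes Cyp2a4, Cyp2g1, Cyp2a5 and Cyp2a21-ps are neighbours among the tested genes, from -5.21 to -3.95, and the 15 flanking genes lie between -0.63 and 0.40.

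Regulators known for Cyp2a5 and Cyp2b10 were read in the same fit. Of 24 listed and tested, 4 were lower in KO, 1 was higher and 19 were not called, where 8.83% of all genes tested were called either way, and the median was 0.06 against 0.00. The 5 calls became 2 without WT_1 or WT_3, 3 without KO_2, 2 without the variance trend and 0 without the 3 libraries with pancreas transcripts. Nr1i3, which encodes CAR, had 7841, 6128 and 5005 normalized counts in WT, 3207, 2853 and 2688 in KO and 3206, 4246 and 5158 in KI. KO lay wholly below WT, with a log2 fold change of -1.10 ± 0.20 (limma adjusted p = 0.00919), while KI overlapped WT (-0.59 ± 0.20, adjusted p = 0.269). Dbp had 3932, 3146 and 4134 in WT and 1243, 1225 and 265 in KO, a fall of -2.33 ± 0.48 (limma adjusted p = 0.0169), and 2973 to 3978 in KI. The Dbp call was lost without WT_1 (adjusted p = 0.0674) or WT_3 (adjusted p = 0.0607), and Nr1i3 held without either, at an adjusted p of 0.0424 and 0.0133. Without KO_3, the lowest library, Dbp stood at -1.59. Tef, a relative of Dbp, fell by 1.49 (adjusted p = 0.0106) and Nfil3, a repressor at the same DNA elements, rose by 1.43 (adjusted p = 0.0165). Tef was not called without WT_1, nor Nfil3 without WT_3 or KO_2.

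Nfe2l2, the oxidative stress factor, fell by 0.52 in KO (limma adjusted p = 0.0303), a call lost without WT_1, WT_3, KO_2 or KO_3. Its 3 KO libraries lay between 1836 and 1851 normalized counts and its KI libraries between 1904 and 2216, all below the 2347 to 3144 of WT, and the KI change of -0.36 was not called (adjusted p = 0.278). Nr1i2, which encodes the receptor PXR, at -0.40 (adjusted p = 0.183), Hnf4a at 0.32 (adjusted p = 0.268) and the female-predominant repressor Cux2 at -1.13 (adjusted p = 0.553) were not called in KO. In KI against WT limma called 0 of the 24 regulators, and edgeR called 0 and DESeq2 1. Of all genes, limma called 0.0263%, edgeR 0.00656% and DESeq2 2.6%. At an unadjusted p under 0.05 in limma there were 6, against 11.6% of all genes tested. Without KO_1 limma called 1, where it called 0.23% of all genes. In KI against KO, Dbp at 2.21 and Tef at 1.25 were called higher, against 3.6% of all genes tested. Nfil3 at -1.47 and Ppargc1a at -1.37 were called lower, against 4.85%. These 4 calls became 2 without KO_2 or KI_2 or in a fit of the 2 groups alone. They became 1 without KI_3 and 0 without KI_1, without the variance trend or with the pancreas genes as a covariate. The fit without the 3 libraries with pancreas transcripts leaves 1 KI library and is not read for these calls.

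Other targets of CAR and PXR fell more often than they rose in KO. Of 33 tested, 19 were lower and 2 higher, against 4.2% and 4.63% of all genes, with a median of -1.47. These 21 calls became 11 without WT_1 or WT_2, 13 without WT_3 or KO_3, 10 without KO_2, 13 without the variance trend and 0 without the 3 libraries with pancreas transcripts. On the log2 scale Cyp2c37 changed by -3.89 (limma adjusted p = 3.05e-04), Cyp2c54 by -3.99, Cyp2c50 by -3.80 and the glutathione transferase gene Gsta2 by -4.71. Cyp3a13, at 1.89, and the stress gene Gadd45b, at 3.29, were the 2 that rose, named here after their values were seen. In KI against KO, 15 were higher and 2 lower, against 3.6% and 4.85% of all genes. These 17 calls became 26 without KO_1, where 15.1% of all genes were called. They became 6 without KO_2, 11 without KO_3 or KI_2, 8 without KI_1 and 10 without KI_3. They became 11 in a fit of the 2 groups alone, 10 without the variance trend, 8 with the pancreas genes as a covariate and 0 without the 3 libraries. In KI against WT limma called 0 of 33, where 0.0263% of all genes were called. At an unadjusted p under 0.05 there were 3, against 11.6% of all genes. edgeR called 0 of 33 and DESeq2 0 of 32. The Cyp2c and Gsta genes also have close copies, so reads within each family could be split wrongly.

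Among the partners of P450 enzymes, 14 genes for electron transfer and heme synthesis, 2 were lower and 1 higher in KO, against 4.2% and 4.63% of all genes, with a median of -0.31. Cyb5a, which encodes cytochrome b5, was lower at -1.10 (limma adjusted p = 0.0111), as was Pgrmc1, a heme-binding partner of P450 enzymes, at -0.82 (adjusted p = 0.0359), while the heme synthesis gene Uros rose by 0.51 (adjusted p = 0.0327). In KI against KO, Cyb5a was 1.12 higher and Alas1, the first enzyme of heme synthesis, 1.99 higher, where 3.6% of all genes were called higher. Both of these calls ended without the 3 libraries with pancreas transcripts, with the pancreas genes as a covariate and without KO_2, and that of Alas1 also without KI_1 or KI_3. The list held 6 calls there without KO_1, where 15.1% of all genes were called. In KO against WT the 3 calls became 7 without KO_1, 1 without WT_2, WT_3, KO_3 or KI_3, and 0 without WT_1, without KO_2 or without the 3 libraries. In the fit of the 2 groups alone and without the variance trend there was 1. Without KO_1, 16.5% of all genes were called in KO against WT.

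Sex-biased genes of mouse liver bear on Cyp2a4, Cyp2b9 and Cyp2b13. Of 26 female-predominant genes tested, 9 were lower and 2 higher in KO, against 4.2% and 4.63% of all genes, with a median of -1.09. The lower genes included Cyp2c39 at -2.23 (limma adjusted p = 4.62e-04), Rdh16 at -2.16, Cyp4a10 at -3.90 and Cyp3a44 at -3.79. The 11 calls became 6 without WT_3, KO_3 or the variance trend, 7 without KO_2 and 1, Cyp4a10, without the 3 libraries with pancreas transcripts. Of 26 male-predominant genes, 5 were lower and 0 higher, against the same shares of all genes, with a median of -0.61. Among them were Cyp4a12b at -1.03 and Ugt2b1 at -2.08. Of all genes, 16.5% were called in KO against WT without KO_1, 15.4% by DESeq2 and 7.94% by edgeR. The 5 male calls became 15 without KO_1, 1 without any other single WT or KO library, 12 by DESeq2, 3 by edgeR, with the covariate or in a fit of the 2 groups alone, 2 without the variance trend and 0 without the 3 libraries.

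In KI against WT the female list held 1 call, Cyp2c39 at -1.72 (limma adjusted p = 0.0398), where 0.0263% of all genes were called. This call was lost by edgeR (adjusted p = 0.0598), with the pancreas genes as a covariate (adjusted p = 0.0737), without the variance trend, without the 3 libraries, and without any 1 of WT_1, WT_2, WT_3, KI_1 or KI_3 (adjusted p = 0.0787 to 0.205). DESeq2 called 5 of 25 genes of that list, where it called 2.6% of all genes in this comparison. Without KO_1 limma called 2, where it called 0.23% of all genes. Of its 26 genes, 9 had an unadjusted p under 0.05 in limma, against 11.6% of all genes tested. The median of the female list was -0.88 in KI against WT, beside -1.09 in KO against WT, and 0.00 over all genes tested. Of 13 genes of growth hormone signalling, which sets this sex bias, Socs3 was higher at 2.84, and Igf1 at -0.66 and Ghr at -1.16 were lower in KO, against 4.63% of all genes called higher and 4.2% lower, and the list's median was 0.06. These 3 calls became 5 without KO_1 or by DESeq2, 1 without WT_3, KO_2 or the variance trend or in the fit of the 2 groups alone, and 0 without WT_1, WT_2, KO_3 or the 3 libraries.

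Lists of zonated genes were read as well. Of 20 genes of hepatocytes near the central vein, where Cyp2a5 protein is known to lie, 4 were lower in KO and 0 higher, against 4.2% and 4.63% of all genes, with a median of -0.63. They were Aldh3a2 at -2.32, the bile acid enzyme gene Cyp7a1 at -3.96, Rgn at -1.52 and Lect2 at -0.68. The count became 11 without KO_1, where 16.5% of all genes were called, and 2 without WT_1, WT_2 or KO_2. Of 17 genes of hepatocytes near the portal vein, Cdh1, Ctsc and Apof were higher and Hsd17b13 lower, against 4.63% and 4.2% of all genes. The median was -0.43. That count became 11 without KO_1, 2 without WT_3 and 1 without WT_1, WT_2 or KO_2. Neither list held a call without the 3 libraries with pancreas transcripts.

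Acute phase genes were higher in the KO libraries, where Cyp2a5 was lower. Of 29 tested, 23 were higher in KO and 0 lower, against 4.63% and 4.2% of all genes, with a median of 2.80, led by Saa2 at 11.16 and Saa1 at 8.64. Without WT_3, KI_1 and KI_3 there were 4 calls, Saa2 and Saa1 among them. KO_1 had the lowest acute phase share of the KO libraries and the highest Cyp2a5, Cyp2a4, Cyp2a21-ps and Cyp2a12. Markers of other cells were read too, where 4.63% of all genes tested were called higher in KO and 4.2% lower. The 12 neutrophil and monocyte markers found took 2.42e-04% to 6.51e-04% of reads in WT, 8.63e-04%, 0.00260% and 0.00456% in the KO libraries and 3.38e-04% to 8.24e-04% in KI. Of these, 10 were tested, and Prtn3 and Mmp8 were higher in KO. Mmp8 was not called without any 1 of the WT libraries, KO_2, KO_3, KI_1 or KI_3. Without KO_1, 5 of the 10 were called, against 16.5% of all genes.

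The 16 Kupffer cell and macrophage markers took 0.0391% to 0.0684% of reads in WT and 0.0506% to 0.114% in KO, with Mpeg1, Marco and Cd163 higher and the median at 0.19. Marco and Cd163 were not called without any 1 of the WT libraries, KO_3 or KI_3, nor Cd163 without KO_2. The 16 endothelial, stellate and biliary markers took 0.0397% to 0.0452% in WT and 0.0360% to 0.0662% in KO, with a median of 0.09. Only Sox9 was called, and it was higher, so 6.25% of this list was called against 8.83% of all genes tested. The Sox9 call was lost without any 1 of the WT libraries, KO_2 or KO_3 and with the pancreas genes as a covariate. None of the 6 called markers, Prtn3 and Mmp8 included, was called without the 3 libraries with pancreas transcripts. Of 7 airway and nasal markers, the other sites where Cyp2a5 and Cyp2g1 are known to be expressed, Foxj1 and Omp were found, at no more than 17.2 normalized counts in any library. The part of the acute phase and of these other cells in the fall of the Cyp2a genes was not tested. No time of day is given for the livers beyond a joint harvest.

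**Figure D4:**
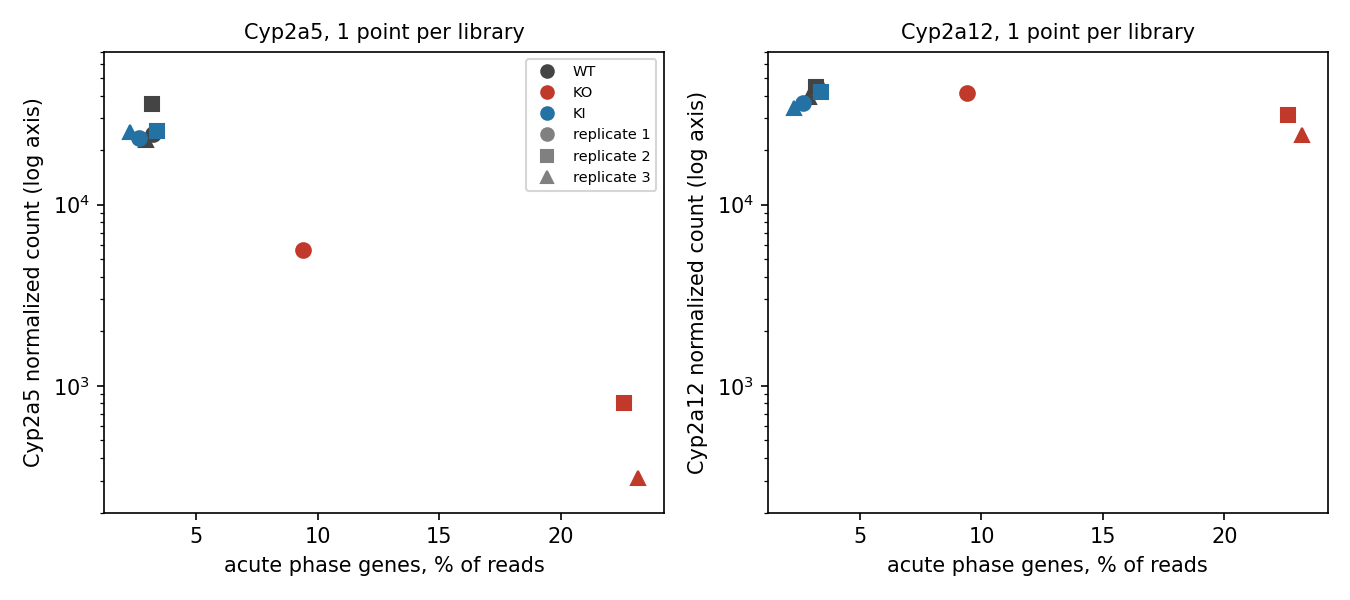
Normalized count on a log axis against the share of reads from 29 acute phase genes, for Cyp2a5 (left) and Cyp2a12 (right), 1 point per library, with colour for genotype and shape for replicate. The 6 WT and KI libraries lie at shares of 2.27% to 3.38%, KO_1 at 9.38% with 5601 counts of Cyp2a5, and KO_2 and KO_3 beyond 22% with 801 and 309.

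Across the 9 libraries, Pearson's r of log values was 0.99 between Cyp2a5 and Cyp2a4 and 0.99 between Cyp2a5 and Cyp2a21-ps, which share sequence. It was 0.83 between Cyp2a5 and Cyp2a12, 0.58 with Cyp2b10 and 0.02 with Cyp2b9. These values describe 9 libraries of 3 genotypes, which share their processing and scaling, and carry no test. Outside the family, the genes most like Cyp2a5 were Gsta3 (r = 0.998), Tlcd2 (0.995), Sord (0.994), Akr1c20 (0.993) and Cyb5a (0.993). Gsta3, a glutathione transferase gene, had means of 73337 in WT, 7810 in KO and 69018 in KI.

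The genes most like Cyp2a12 were Rhobtb2 (r = 0.998), Slc25a5, Cyp2d10, Qdpr and Apoc3 (0.982), and most like Cyp2b10 were Uhrf1bp1 (0.971), Rexo5, Nfx1, Snai2 and Ralgps1 (0.944). These 3 lists of 5 genes, that of Cyp2a5 included, were picked from genes with a mean of at least 50. Genes of the family, genes without a symbol and those with a Gm or Rik name were left out.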

How the data were processed

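Total RNA was made into stranded mRNA libraries, per the labels' protocols. The authors deposited 1 table of normalized counts per gene, taken here as a signal. TopHat2, Bowtie2 and featureCounts were used with GRCm38, per the submitters' processing notes; versions, annotation, strand and multiple-mapping settings are not given in the sources used here. The deposited values are whole reads divided by a size factor of 0.892 to 1.11 per library. Whole reads were recovered for at least 99.995% of the values of each library, within 0.0051 units.

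Values were tested as log2(value + 1) with limma 3.58.1 in R 4.3.3, with a trend of variance on abundance and 1 mean per group over all 9 libraries, in 15238 genes with a mean of at least 10. Fold changes are on that scale, which understates those of low genes. Tests were two-sided, with Benjamini-Hochberg adjustment over all genes tested and calls at an adjusted p under 0.05. edgeR 4.0.16 and DESeq2 1.42.0 on the recovered reads, other pseudocounts, filters, scalings and sets of libraries were alternatives. The fit was tested on simulated data. Python 3.11, pandas 2.3.3 and scipy 1.17.1 were also used.

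A library's name joins its group and its number in the title. Columns were matched to samples by the animal number in the description. Counts of 2 libraries of a group gave a chi-square per degree of freedom of at least 68.6, and none was a copy of another. Gene positions and exon lengths are from GENCODE M21, and upstream sequences from RefSeq on GRCm38.p6. The 8 genes and the gene lists were chosen with earlier results of these data known. Named genes are the 8, Snd1, 6 regulators, up to 4 called genes with the smallest adjusted p per list and comparison, and the 5 genes most alike by Pearson's r for 4 of the family, of which that for Cyp2b9 is not reported here; Cyp2f2, Cyp2s1, Foxj1 and Omp were named after their values were seen.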

Additional observations from a re-analysis of the deposited data

How the results depend on the processing

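The number of family genes called in KO against WT was 3 by limma and 2 to 4 with 1 library left out. It was 0 without the 3 libraries with pancreas transcripts, where the sum of Cyp2a4 and Cyp2a5 changed by -4.73 (adjusted p = 0.152). In KI against KO the count was 3 and ranged from 1 to 3 with 1 library left out (1 without KO_2). It was 0 without those 3 libraries (sum 4.52, adjusted p = 0.399) and 0 with the pancreas genes as a covariate (sum 4.61, adjusted p = 0.0519). In KI against WT it was 0 under every setting run. Over all settings, the adjusted p of the sum ran from 7.74e-06 to 0.152 in KO against WT and from 1.13e-05 to 0.399 in KI against KO. With 1 library left out, the sum ranged from -5.77 to -3.67 in KO against WT, from 3.53 to 5.63 in KI against KO, and from -0.27 to 0.0636 in KI against WT, where it turned without WT_2. The log2 ratio of Cyp2a12 to that sum in KI against WT ranged from -0.23 to 0.0472 and turned positive without WT_1, WT_3 or KI_3. Other signs that turned were of values not called, given with their range over fits with 1 library left out. They were, in KO against WT, Cyp2b9 without WT_2 or KO_3 (-0.92 to 0.33), in KI against WT without WT_2, Cyp2a5 (-0.27 to 0.0661) and Cyp2a21-ps (-0.38 to 0.0477), and in KI against KO, Cyp2b10 without KO_3 (-0.14 to 1.35) and Cyp2a22 without KI_2 (-0.0199 to 0.41). Cyp2b9 in KI against KO turned to 0.69 without the 3 libraries. The smaller fits hold fewer libraries, and beyond that the cause was not tested.

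Replicate numbers are shared by the groups. Deviations of libraries with the same number correlated from -0.14 to 0.57, and those of libraries with different numbers from -0.62 to 0.32. These ranges overlap and do not settle whether the numbers pair the libraries. With the replicate block, 4 family genes were called in KO against WT (Cyp2b10 in addition, -2.67, adjusted p = 0.0301), 3 in KI against KO and 0 in KI against WT. Counts over all genes that moved by more than 1.5 times were, for KO against WT, from 1346 to 871 with only the 2 groups fitted, 800 without the variance trend, 30 without the 3 libraries, 2295 by DESeq2, 2516 without KO_1 and 501 to 778 without any 1 of WT_1, WT_2, WT_3, KO_2 or KO_3. Counting error, as 1 over the square root of the reads, was 22.4% for Cyp2a4 in KO_2 (20 reads), 28.9% and 26.7% for Cyp2b9 in KI_1 and KI_3 (12 and 14 reads), and 70.7% for Cyp2a4 in KO_3 and Cyp2a21-ps in KO_2 and KO_3 (2 reads each). Cyp2b13 had at most 6 reads, and every other value of the 8 genes rests on at least 30 reads.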
